A study of Homo sapiens with 3 samples.

Results

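Glycolysis and hypoxia response genes, 35 in all, were read in TE5 cells, an established line of human squamous carcinoma of the esophagus, after transfection of short hairpin RNA against KLF5. They were taken as a list of gene names for their place in sugar breakdown or in the response to low oxygen, with no threshold on a measured value, and make up 35 of 52992 genes and 406 of 196354 transcripts in the deposited tables. Their roles were 15 core glycolytic enzymes, 3 regulatory enzymes, 2 transporters, 9 non-enzymatic hypoxia targets and 6 other hypoxia-induced enzymes. One set of cells carried shKLF5 and the control carried a scramble sequence, and both were harvested after 48 h in otherwise the same medium. There were 2 shKLF5 libraries, which the labels number 1 and 2, and 1 scramble library. The labels do not say whether the numbers stand for separate hairpins or separate cultures. The spread behind the p-values is thus only that between those 2 libraries, which could be technical. It is largely pooled over all genes (1 residual and 6.86 prior degrees of freedom), so a p-value does not measure how far a gene's own 2 values lie apart. The spread of the lone scramble library is taken to be like that of the 2 shKLF5 libraries. All libraries come from 1 cell line, and in bulk RNA fewer expressing cells and less RNA per cell cannot be told apart.

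Glycolysis splits glucose into pyruvate in a chain of cytosolic enzymes, and carcinoma cells often run it at a high rate, passing the pyruvate to lactate even with oxygen present. When oxygen is low, prolyl hydroxylases no longer mark the HIF alpha subunits for destruction by VHL. The subunits then pair with ARNT at short DNA elements, the hypoxia response elements, and raise most glycolytic enzymes together with targets that are not enzymes, among them secreted factors, mitophagy receptors and transcription repressors. KLF5 itself binds GC-rich DNA through zinc fingers and is active in dividing epithelial layers.

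KLF5 (ENSG00000102554, chr13:73054976-73077542) checked the labels. It had 37.2 and 44.0 CPM in shKLF5 libraries 1 and 2, against 316 CPM in scramble, where CPM are counts scaled to library size with TMM factors, which set the bulk of genes near a ratio of 1. The fold change was -2.96 on the log2 scale (SE 0.34, 95% interval -3.75 to -2.17, adjusted p = 0.182, edgeR's quasi-likelihood test with Benjamini-Hochberg adjustment). Totals were 32720563 to 33544752 estimated counts, and mitochondrially encoded mRNA held 26.9% and 30.9% of counts in shKLF5 libraries 1 and 2 and 31.4% in scramble. All 9 squamous markers listed had at least 10 counts in every library, summing to 2780 and 1449 CPM in shKLF5 libraries 1 and 2 and 10425 CPM in scramble. Fibroblast markers summed to 63.7 and 44.8 CPM in the shKLF5 libraries and 49.2 CPM in scramble, leukocyte markers to 7.42 and 9.92 against 4.48 CPM, and endothelial markers to 7.51 and 10.4 against 3.35 CPM, with MS4A1, CD3E, KDR and CDH5 at 0 in scramble. Of 5 genes listed for each of these types (4 matched for endothelium), 1 had at least 10 counts in every library. The part of these marker shifts in the results was not tested.

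Promoters of the members are shown first because HIF reads short letters in DNA. The 250 bases before the annotated start were taken from RefSeq (GRCh38.p14) for 32 of the 35 members; VEGFA, NDRG1 and BNIP3L are named only. The core of the hypoxia response element was searched as ACGTG and GCGTG on both strands, where the reverse strand reads CACGT and CACGC, and the palindrome CACGTG counts once on each strand. Capitals below mark these letters. LDHA (chr11:18394313-18394562, + strand) and PGK1 (chrX:78103998-78104247, + strand) are shown as enzymes with several cores, SLC2A1 (chr1:42958869-42959118, − strand) as the member with the lowest fold change and no core, and ANKRD37 (chr4:185396591-185396840, + strand) and BHLHE40 (chr3:4979187-4979436, + strand) as targets with cores whose RNA was not lower.
LDHA: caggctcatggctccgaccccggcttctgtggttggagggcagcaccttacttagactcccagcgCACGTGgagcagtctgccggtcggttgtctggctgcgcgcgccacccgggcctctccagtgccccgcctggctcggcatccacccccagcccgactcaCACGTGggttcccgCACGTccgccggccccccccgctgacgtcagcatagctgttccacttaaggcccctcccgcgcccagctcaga
PGK1: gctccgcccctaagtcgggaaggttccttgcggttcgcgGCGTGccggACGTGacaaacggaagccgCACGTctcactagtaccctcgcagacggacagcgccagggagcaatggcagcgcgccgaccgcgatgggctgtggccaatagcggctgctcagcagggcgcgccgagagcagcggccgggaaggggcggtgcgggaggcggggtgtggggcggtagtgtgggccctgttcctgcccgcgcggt
SLC2A1: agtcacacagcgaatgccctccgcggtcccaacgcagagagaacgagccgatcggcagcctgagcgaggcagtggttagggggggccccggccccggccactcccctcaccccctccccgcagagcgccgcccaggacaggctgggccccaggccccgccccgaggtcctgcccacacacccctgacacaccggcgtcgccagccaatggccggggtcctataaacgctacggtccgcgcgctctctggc
ANKRD37: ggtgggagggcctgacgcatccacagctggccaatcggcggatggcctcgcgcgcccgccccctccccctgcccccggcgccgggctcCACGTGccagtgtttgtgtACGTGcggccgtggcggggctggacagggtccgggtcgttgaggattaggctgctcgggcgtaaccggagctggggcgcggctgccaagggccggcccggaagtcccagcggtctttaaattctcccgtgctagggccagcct
BHLHE40: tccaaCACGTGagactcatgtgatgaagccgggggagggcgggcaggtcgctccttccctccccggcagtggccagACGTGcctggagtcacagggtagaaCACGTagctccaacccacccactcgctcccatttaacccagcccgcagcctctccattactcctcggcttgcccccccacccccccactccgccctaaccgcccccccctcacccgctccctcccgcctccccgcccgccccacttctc
LDHA held 5 matches, BHLHE40 4, PGK1 and ANKRD37 3 each, and SLC2A1 0. At least 1 match lay in 22 of the 32 member promoters, in 10 of 15 core enzymes and in 6 of 6 non-enzymatic targets with an entry. The same letters lay in 43.1% of all 27305 promoters of that length and in 55.2% of the 11668 promoters of tested coding genes. A match is a description of these letters and not a bound site. The RefSeq starts of the genes shown differ from the outer ends of their GENCODE gene spans. The stretches shown lie partly or wholly inside those spans, so the match counts depend on the start chosen. Of the tested members, the 21 with a match had a median log2 fold change of -0.56, with 15 below 0, and the 10 without one had a median of -0.55, with all 10 below 0.

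The 15 core enzymes carry glucose to lactate, and 13 of them had fewer CPM in both shKLF5 libraries than in scramble. ENO2 was higher in both, though by little in library 1, and HK2 was lower in 1 library. Of the 34 members tested, 0 passed the adjusted threshold of 0.05, and neither did any other gene (0.0% of the 20629 tested, edgeR's quasi-likelihood test). At an unadjusted p under 0.05 the same test gave 1893 genes, 722 lower (3.5%) and 1171 higher (5.68%). It gave 7 of the 34 members, all 7 lower. Among the 1430 genes with a mean of at least 100 CPM it gave 142 lower and 19 higher. DESeq2 called 116 genes (0.681%) and edgeR's legacy fit 21, none of them members. The median log2 fold change of the core enzymes was -0.64 (-0.21 with library size alone), beside 0.04 over all genes tested (0.47 with library size alone). Over the libraries, 24 of 34 members were lower in both shKLF5 libraries, beside 36.5% of all genes tested and 66.2% of the 1430 genes with a mean of at least 100 CPM, and 6 were higher in both, beside 37.9%. That order depends on the scaling: by CPM of the plain library total, 8 of 15 core enzymes and 14 of 34 members were lower in both libraries, beside 12.6% of all genes, and by TPM, which divides by transcript length, 7 of 15 and 13 of 34, beside 11.3%. The core enzymes that drop out are PFKP, ALDOA, ALDOC, PGK1 and PGAM1, and by TPM also TPI1, each no longer lower in library 1.

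**Figure D1:**
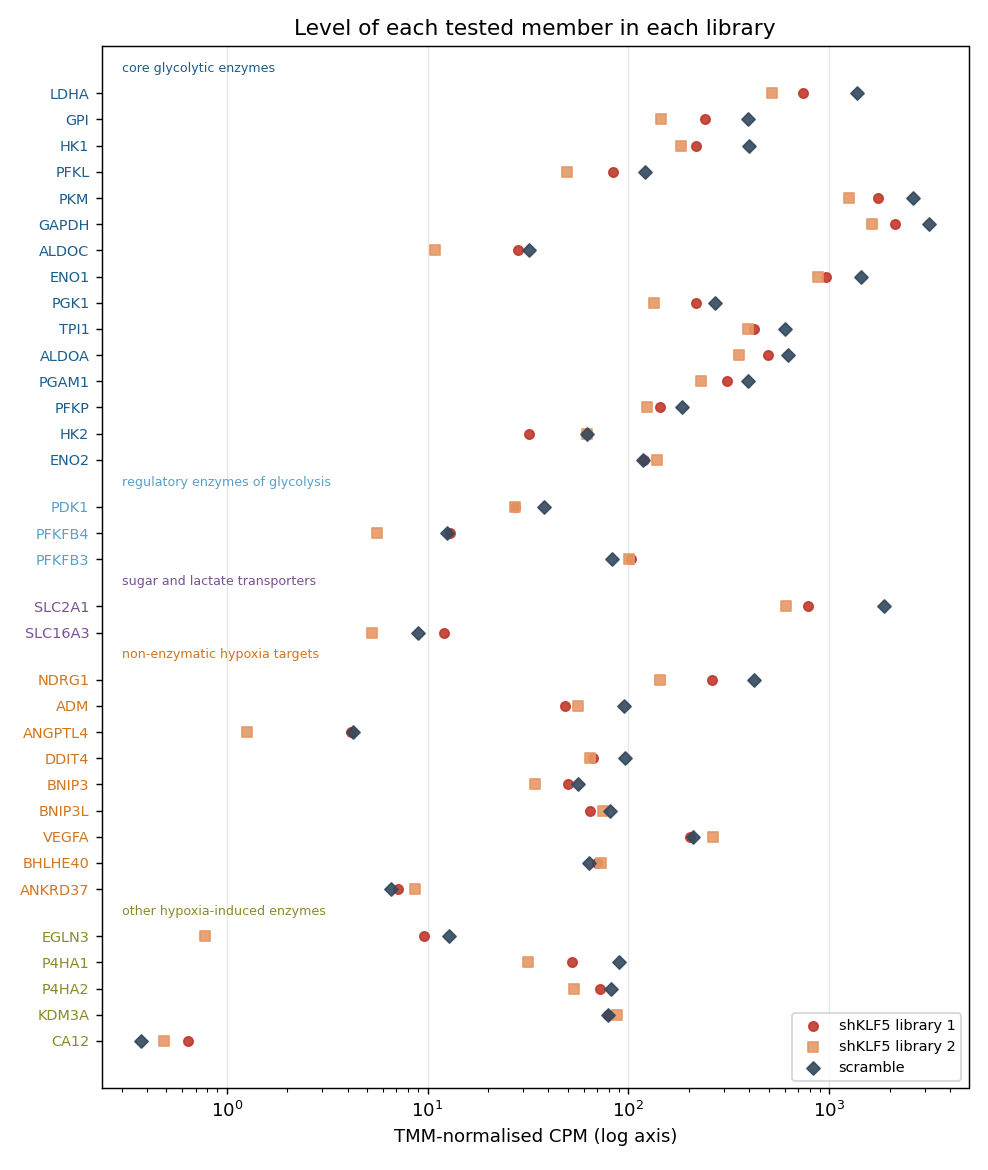
Level of the 34 tested members in the 3 libraries as TMM-normalised CPM on a log axis, 1 row per gene, grouped by role; circles and squares are shKLF5 libraries 1 and 2 and diamonds scramble. For 13 of 15 core enzymes both shKLF5 points lie left of the scramble point, while ENO2, PFKFB3, ANKRD37, BHLHE40, KDM3A and CA12 have them on the right.

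Glucose enters through SLC2A1, the widespread glucose transporter GLUT1 (ENSG00000117394, chr1:42925375-42959176). SLC2A1 had 786 and 610.3 CPM in shKLF5 libraries 1 and 2, against 1872 CPM in scramble (331 and 245 TPM against 552 TPM). Both shKLF5 libraries lay well below scramble, and the log2 fold change of -1.42 (SE 0.37, 95% interval -2.28 to -0.56) was the lowest of the 34 members tested. The unadjusted p was 0.00525 and the adjusted p 0.466 by edgeR's quasi-likelihood test. Over all settings with a test, 0.188 was the lowest adjusted p of any member, and it belonged to SLC2A1 as well. SLC2A3, the neuronal-type glucose transporter, had 312 and 220 CPM in shKLF5 libraries 1 and 2, against 258 CPM in scramble. SLC2A1 held 72.7% and 75.2% of the TPM of this pair in shKLF5 libraries 1 and 2, against 88.2% in scramble. The other transporter among the members, SLC16A3, exports lactate: it had 12.0 and 5.32 CPM in the shKLF5 libraries, one above and one below the 8.99 CPM of scramble.

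Trapping of glucose as glucose 6-phosphate falls to the hexokinases. HK1, the ubiquitous form (ENSG00000156515, chr10:69269984-69401884), had 216 and 184 CPM in shKLF5 libraries 1 and 2, against 398 CPM in scramble (79.3 and 64.4 TPM against 111 TPM). Both shKLF5 values lay well below scramble, with a log2 fold change of -0.99 (SE 0.34, 95% interval -1.78 to -0.20). HK2, the hypoxia-inducible form, had 31.95 and 62.2 CPM in shKLF5 libraries 1 and 2, against 62.1 CPM in scramble. Only library 1 was lower for HK2, and the HK2 share of the pair's TPM was 7.96% and 16.2% in the shKLF5 libraries and 7.90% in scramble. GPI, which turns glucose 6-phosphate into fructose 6-phosphate (ENSG00000105220, chr19:34359480-34402413), had 241 and 146 CPM in shKLF5 libraries 1 and 2, against 393 CPM in scramble (141 and 83.3 TPM against 161 TPM). Its 2 shKLF5 values differed from each other by more than those of HK1, and both lay below scramble at a log2 fold change of -1.02 (SE 0.40, 95% interval -1.94 to -0.10).

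Phosphofructokinase commits the sugar to the pathway. PFKL, the liver-type subunit, had 83.5 and 49.6 CPM in shKLF5 libraries 1 and 2, against 120.5 CPM in scramble, a log2 fold change of -0.86. PFKP, the platelet-type subunit, had 144 and 123 CPM, against 185 CPM in scramble, a log2 fold change of -0.47. The muscle-type subunit PFKM, which is no member, had 102 and 111 CPM in shKLF5 libraries 1 and 2 and 110.0 CPM in scramble, and its share of the TPM of the 3 subunits was 30.7% and 36.2% in the shKLF5 libraries, against 25.2% in scramble. The pathway's accelerator PFKFB3, which makes the activator of phosphofructokinase, was among the few members above scramble, with 103 and 100.2 CPM in the shKLF5 libraries against 82.8 CPM, a log2 fold change of 0.30. Its relative PFKFB4 had 12.9 and 5.61 CPM in shKLF5 libraries 1 and 2, against 12.6 CPM in scramble, so the libraries did not move the same way. PDK1, which holds pyruvate out of the mitochondrion's citric acid cycle by phosphorylating pyruvate dehydrogenase, had 27.3 and 27.4 CPM in the shKLF5 libraries, against 37.8 CPM in scramble. By TPM both PDK1 values stood above scramble, with 8.88 and 10.3 TPM in shKLF5 libraries 1 and 2 against 7.32 TPM, so its direction turned with the scaling.

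Per length, the 6 core enzymes with the highest TPM in scramble, GAPDH, PKM, LDHA, TPI1, ENO1 and ALDOA, all act from aldolase onward. Aldolase splits the 6-carbon sugar: ALDOA had 497 and 357 CPM in shKLF5 libraries 1 and 2, against 622 CPM in scramble, and ALDOC 28.3 and 10.9 CPM, against 31.9 CPM. Both aldolases were lower in both libraries on this scale, ALDOC by little in library 1, and neither was by plain library total. TPI1, which interconverts its 2 products, had 424 and 395 CPM in the shKLF5 libraries, against 604 CPM in scramble. GAPDH, the first step that harvests energy (ENSG00000111640, chr12:6533927-6538374), had 2118 and 1637 CPM in shKLF5 libraries 1 and 2, against 3146 CPM in scramble (2243 and 1618 TPM against 2388 TPM). GAPDH thus lay below scramble in both libraries at a log2 fold change of -0.75 (SE 0.40, 95% interval -1.67 to 0.19), and its interval spans 0. PGK1, the first ATP-making step (ENSG00000102144, chrX:77910739-78129296), had 217 and 134 CPM in shKLF5 libraries 1 and 2, against 269.8 CPM in scramble. By TPM its library 1 stood above scramble, with 240.1 and 129.6 TPM in the shKLF5 libraries against 216 TPM, so its direction in that library turned with the scaling. The log2 fold change of PGK1 was -0.62 (SE 0.40, 95% interval -1.53 to 0.29).

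PGAM1, which moves the phosphate of 3-phosphoglycerate, had 312 and 231 CPM in the shKLF5 libraries, against 393 CPM in scramble. ENO1, the widespread enolase, had 962 and 877 CPM in shKLF5 libraries 1 and 2, against 1434 CPM in scramble, a log2 fold change of -0.64. ENO2, the neuronal enolase, stood apart from the rest of the chain with 119 and 138 CPM in the shKLF5 libraries, against 118 CPM in scramble. ENO3, the muscle enolase, had 21.3 and 44.5 CPM in the shKLF5 libraries, against 15.7 CPM in scramble. ENO1 held 86.6% and 80.2% of enolase TPM in shKLF5 libraries 1 and 2, against 91.1% in scramble. PKM, pyruvate kinase, had 1752 and 1258 CPM in the shKLF5 libraries, against 2614 CPM in scramble, a log2 fold change of -0.80. Transcripts with its downstream exclusive exon, the one of the PKM2 type usual in proliferating cells (chr15:72202454-72202620), held 98.6% and 98.3% of the estimated counts of coding transcripts with either exon in shKLF5 libraries 1 and 2, and 98.9% in scramble. The upstream exon of the PKM1 type (chr15:72203022-72203188) held 1.38% and 1.72%, against 1.11%, so PKM2-type transcripts dominated in all 3 libraries.

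LDHA, which turns pyruvate into lactate (ENSG00000134333, chr11:18394388-18408425), had 739.6 and 517 CPM in shKLF5 libraries 1 and 2, against 1370.2 CPM in scramble (668 and 421 TPM against 849 TPM). Both shKLF5 libraries were far below scramble, and the log2 fold change of -1.13 (SE 0.38, 95% interval -2.01 to -0.24, unadjusted p 0.0194 by edgeR) was the lowest of the core enzymes. Its 3 leading coding transcripts were lower alike: LDHA-203 had 242 and 176 CPM in the shKLF5 libraries against 539 CPM, LDHA-204 235 and 153 against 341 CPM, and LDHA-206 169 and 119 against 329.9 CPM. LDHB, the form that favours the return to pyruvate, had 241 and 235 CPM in shKLF5 libraries 1 and 2, against 354 CPM in scramble. LDHA held 69.8% and 61.6% of the TPM of the pair in the shKLF5 libraries, against 74.1% in scramble.

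**Figure D2:**
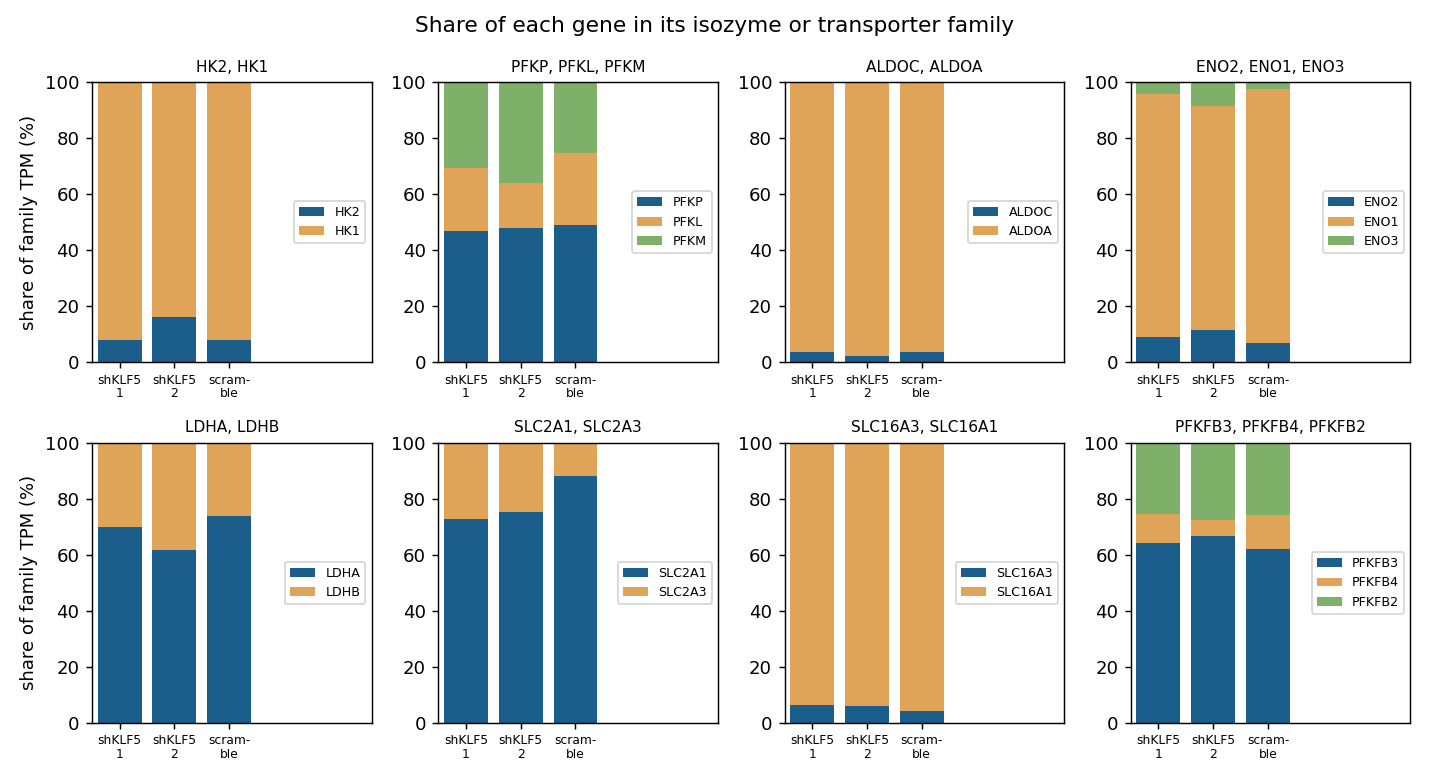
Share of each gene in the summed TPM of its isozyme or transporter family, in percent, for 8 families; the 3 stacked bars are shKLF5 library 1, shKLF5 library 2 and scramble. The SLC2A1 share was 72.7% and 75.2% in the shKLF5 libraries against 88.2% in scramble, and the ENO1 share 86.6% and 80.2% against 91.1%.

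Summed over the 15 core enzymes, glycolytic mRNA took 7885 and 6121 CPM in shKLF5 libraries 1 and 2, against 11761 CPM in scramble. As a plain share of all estimated counts this was 0.872% and 0.673% in the shKLF5 libraries and 0.964% in scramble, a narrower gap than on the TMM scale. With mitochondrial genes left out of the total, the share was 1.29% and 1.05% in shKLF5 libraries 1 and 2, against 1.59% in scramble. GAPDH, PKM and ENO1 alone made up 0.534% and 0.415% of all counts in shKLF5 libraries 1 and 2, against 0.590% in scramble. Library 2 was the lower of the pair for 13 of the 15 core enzymes, and their median log2 fold change was -0.53 in library 1 and -0.94 in library 2. Over all genes tested, library 2 was below library 1 for 49.7%.

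The 9 non-enzymatic hypoxia targets did not follow a single direction. Fewer CPM were found in both shKLF5 libraries for 6 of them, beside 36.5% of all genes tested. Among the 1430 genes with a mean of at least 100 CPM that share was 66.2%. More CPM in both were found for 2, beside 37.9% of all genes, and VEGFA was split. The median log2 fold change of the 9 targets was -0.40 (0.03 with library size alone, beside 0.47 over all genes tested). By CPM of the plain library total 3 of the 9, NDRG1, ADM and DDIT4, were lower in both libraries, beside 12.6% of all genes, and by TPM the same 3, beside 11.3%. NDRG1, a stress-induced cytosolic protein linked to differentiation (ENSG00000104419, chr8:133237171-133302022), had 261 and 144 CPM in shKLF5 libraries 1 and 2, against 425 CPM in scramble (156 and 77.2 TPM against 163 TPM). Both libraries lay below scramble, library 2 further, at a log2 fold change of -1.07 (SE 0.42, 95% interval -2.04 to -0.10). ADM, the secreted vessel-dilating peptide adrenomedullin (ENSG00000148926, chr11:10304680-10307397), had 48.4 and 56.1 CPM in shKLF5 libraries 1 and 2, against 95.4 CPM in scramble (40.2 and 43.4 TPM against 58.9 TPM). The 2 shKLF5 values were close together and the log2 fold change was -0.87 (SE 0.35, 95% interval -1.67 to -0.06), with library 1 the lower one.

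VEGFA, the vessel growth factor and the best known secreted HIF target (ENSG00000112715, chr6:43770184-43786487), had 203 and 265 CPM in shKLF5 libraries 1 and 2, against 211 CPM in scramble (116 and 134 TPM against 82.3 TPM). On the CPM scale the shKLF5 libraries lay on both sides of scramble, with a log2 fold change of 0.15 (SE 0.37, 95% interval -0.69 to 0.995), and on the TPM scale both were above it. ANGPTL4, a secreted inhibitor of lipoprotein lipase, had 4.16 and 1.27 CPM in the shKLF5 libraries, against 4.25 CPM in scramble, so its difference rested on library 2. The mitophagy receptor BNIP3 had 50.3 and 34.3 CPM in shKLF5 libraries 1 and 2, against 55.9 CPM in scramble, and its relative BNIP3L 64.1 and 75.1 CPM, against 81.2 CPM. DDIT4, an inhibitor of mTORC1 signalling, had 66.9 and 64.2 CPM in the shKLF5 libraries, close together and below the 96.4 CPM of scramble. ANKRD37, an ankyrin repeat protein, had 7.14 and 8.66 CPM, against 6.58 CPM in scramble, and BHLHE40, a circadian and hypoxia-induced repressor, 69.6 and 72.9 CPM, against 63.5 CPM. On this scale these 2 of the 9 targets were above scramble in both libraries, beside 37.9% of all genes tested. By plain library total and by TPM 4 of 9 were, beside 13435 and 13453 of the 20629 genes tested.

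The remaining 6 members are enzymes outside glycolysis. P4HA1, a collagen prolyl hydroxylase subunit (ENSG00000122884, chr10:73007217-73096974), had 52.2 and 31.8 CPM in shKLF5 libraries 1 and 2, against 89.6 CPM in scramble (24.6 and 13.7 TPM against 29.95 TPM). Both libraries were below scramble at a log2 fold change of -1.09 (SE 0.40, 95% interval -2.03 to -0.16). Its relative P4HA2 had 72.2 and 53.4 CPM in the shKLF5 libraries, against 81.9 CPM in scramble. EGLN3, the HIF prolyl hydroxylase that HIF itself induces (ENSG00000129521, chr14:33924231-34462774), had 345 and 27 counts in shKLF5 libraries 1 and 2, against 342 counts in scramble. In CPM this was 9.63 and 0.777, against 12.9 (5.75 and 0.696 TPM against 6.31 TPM), so its log2 fold change of -1.30 (SE 1.03, 95% interval -3.69 to 1.08) rested on library 2, at -3.95, while library 1 was at -0.42. KDM3A, a histone demethylase, had 79.5 and 87.6 CPM in the shKLF5 libraries, against 79.2 CPM in scramble. The carbonic anhydrases were scarce: CA12 had 23 and 17 counts in shKLF5 libraries 1 and 2, against 10 counts in scramble, and CA9, the classical hypoxia marker (ENSG00000107159, chr9:35673856-35681159), had 4 and 2 counts, against 0, too few to be tested.

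**Figure D3:**
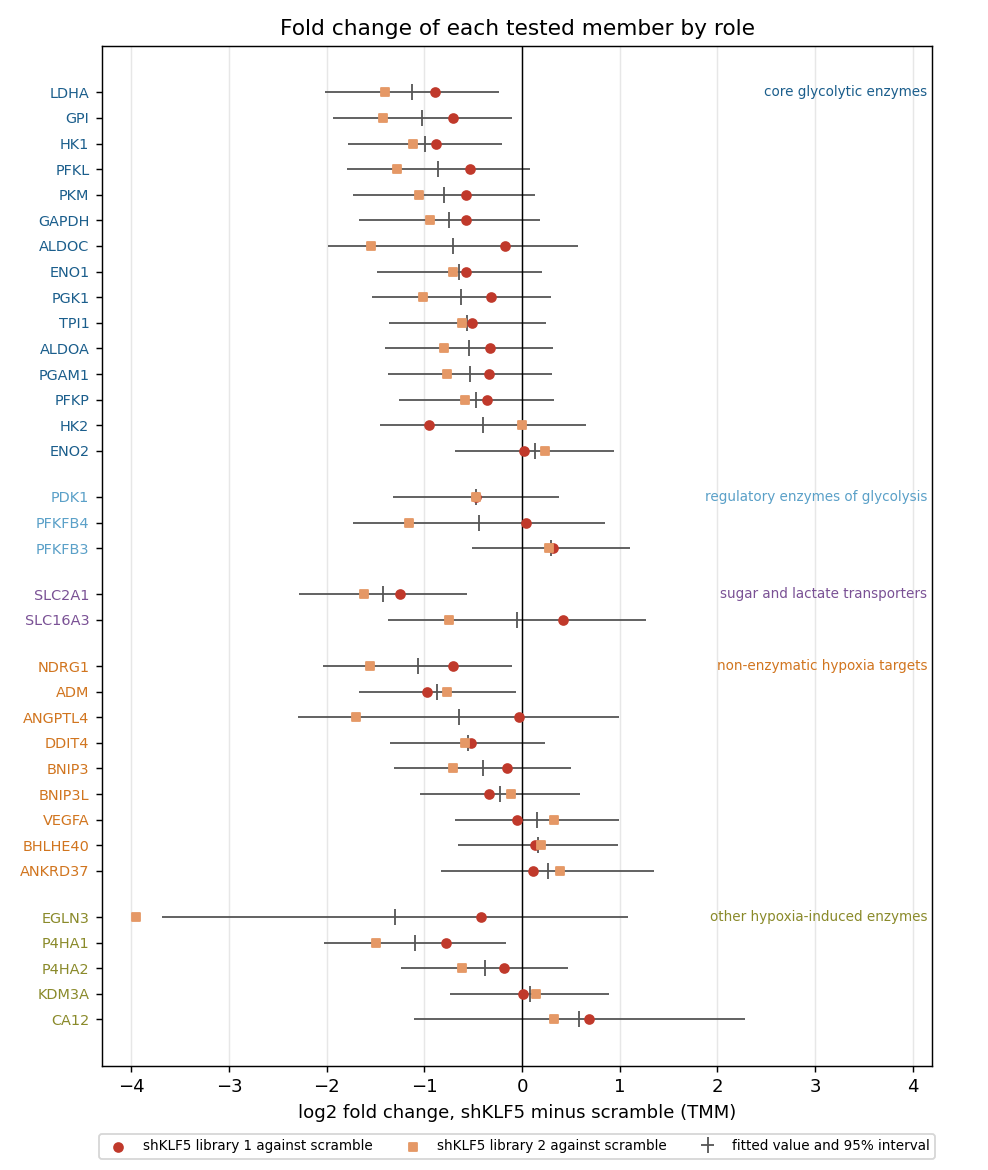
Log2 fold change of shKLF5 against scramble for the 34 tested members by role; circles and squares are shKLF5 libraries 1 and 2 alone and the tick with its line is the fitted value with its 95% interval. The fitted value of SLC2A1 is the lowest at -1.42, the interval of EGLN3 is the widest, and 7 intervals lie wholly below 0.

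Adjusted p-values of the 7 members with an unadjusted p under 0.05, which were SLC2A1, LDHA, HK1, P4HA1, GPI, NDRG1 and ADM, ran from 0.466 to 0.518 (edgeR's quasi-likelihood test with Benjamini-Hochberg adjustment). All 7 were also lower in both libraries by plain library total and by TPM. Their log2 fold changes were -0.99 to -0.44 with library size alone, where the median over all genes tested was 0.47, and -0.98 to -0.66 after a loess on abundance was taken out. They divide into 3 core enzymes, 1 transporter, 2 non-enzymatic targets and 1 collagen hydroxylase.

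Set side by side, core enzymes had a median log2 fold change of -0.64 and non-enzymatic targets -0.40, a difference of -0.24. Within the libraries the difference was -0.38 in library 1 (medians -0.53 and -0.15) and -0.36 in library 2 (medians -0.94 and -0.59). The ranges overlapped widely, from -1.13 to 0.13 over the enzymes and from -1.07 to 0.26 over the targets, and members are not replicates, so no test was run over them. The enzymes were also the more abundant genes, with a median over genes of 266 CPM, against 68.7 CPM for the targets, and fold changes in these libraries ran with abundance. All genes tested were cut into 20 bins of equal gene number. The median log2 fold change was -0.35 in the most abundant bin, which takes in the 266 CPM of the enzymes. It was -0.20 in the bin of 56.7 to 78.2 CPM, which takes in the 68.7 CPM of the targets. In the least abundant bin, at only 0.14 to 0.23 CPM, it was 1.71, so the trend between the abundances of the 2 roles was small beside that. After a loess of each library on abundance was taken out, the medians were -0.21 for the core enzymes and -0.22 for the targets, a difference of 0.01. With library size alone they were -0.21 and 0.03, beside 0.47 over all genes tested. Relative to the median gene, 14 of 15 core enzymes and 6 of 9 targets stood below it under each of these scalings.

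**Figure D4:**
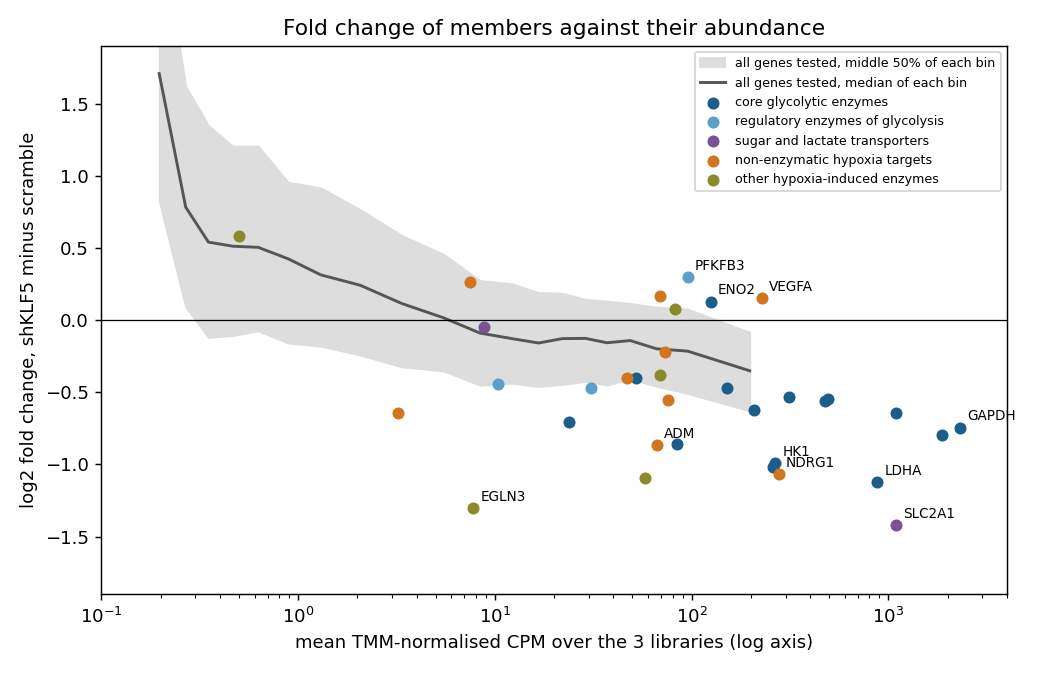
Log2 fold change of shKLF5 against scramble (vertical) against the mean TMM-normalised CPM of the 3 libraries (log axis) for the tested members, coloured by role; the line is the median and the grey band the middle 50% of all genes tested in 20 bins of equal gene number. The median declines to -0.35 in the most abundant bin, which holds all genes above 126 CPM and whose band ends at -0.63; SLC2A1 at -1.42, LDHA at -1.13 and NDRG1 at -1.07 lie below that.

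Single transcripts did not always lie on the same side of scramble as their gene. At least 2 coding transcripts each held 20% or more of the gene's TPM in some library for 13 members: ADM, ALDOC, BNIP3L, CA12, EGLN3, ENO2, GPI, LDHA, P4HA1, P4HA2, PDK1, PFKFB3 and SLC16A3. For 6 members, BNIP3, ENO2, NDRG1, PDK1, PFKFB3 and PFKP, coding transcripts stood on opposite sides of scramble in both shKLF5 libraries by TMM-normalised CPM. Transcripts counted here had at least 10% of the gene's TPM and 10 counts in some library. By TPM this did not hold for BNIP3, ENO2 and PFKP. BNIP3-201 had 56.1 and 32.1 TPM in shKLF5 libraries 1 and 2 against 45.1 TPM in scramble, and PFKP-203 62.1 and 46.1 against 58.1 TPM. ENO2-201 had 41.4 and 44.4 CPM in shKLF5 libraries 1 and 2, against 24.9 CPM in scramble, while ENO2-205 had 58.1 and 67.8 CPM, against 72.3 CPM. On this scale the higher ENO2 total came with more of ENO2-201 and less of ENO2-205. By TPM ENO2-205 was also higher, with 26.2 and 28.4 TPM in shKLF5 libraries 1 and 2 against 23.3 TPM in scramble. PFKFB3-203 had 58.9 and 64.4 CPM in the shKLF5 libraries, against 38.0 CPM in scramble, while PFKFB3-205 had 29.9 and 23.4 CPM, against 34.4 CPM. By TPM PFKFB3-205 lay on both sides, with 8.98 and 6.56 TPM in shKLF5 libraries 1 and 2 against 7.39 TPM in scramble. NDRG1-201 had 218 and 115 CPM in shKLF5 libraries 1 and 2, against 365 CPM in scramble, while a shorter coding transcript (ENST00000518176) had 10.1 and 3.87 CPM, against 0. Most of the ADM difference lay in ADM-208, with 17.9 and 21.8 CPM in the shKLF5 libraries against 45.8 CPM, while ADM-201 had 19.8 and 19.5 CPM against 24.4 CPM. Both leading GPI transcripts were lower in both libraries, GPI-201 with 93.6 and 61.8 CPM against 165 CPM and GPI-208 with 109 and 72.8 CPM against 154 CPM. These are estimates that divide shared reads and they were not tested transcript by transcript. The TPM of PGK1 and TPI1 rest largely on short noncoding transcripts, PGK1-205 with 82.0% and 80.7% of PGK1 TPM in the shKLF5 libraries and 82.5% in scramble, and TPI1-204 with 60.4% and 58.7% against 55.6% of TPI1 TPM. For BNIP3, 39 annotated pseudogenes held estimated counts equal to 24.4% and 26.4% of its own in shKLF5 libraries 1 and 2 and 24.4% in scramble, and for the other 8 members checked at most 1.34%.

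**Figure D5:**
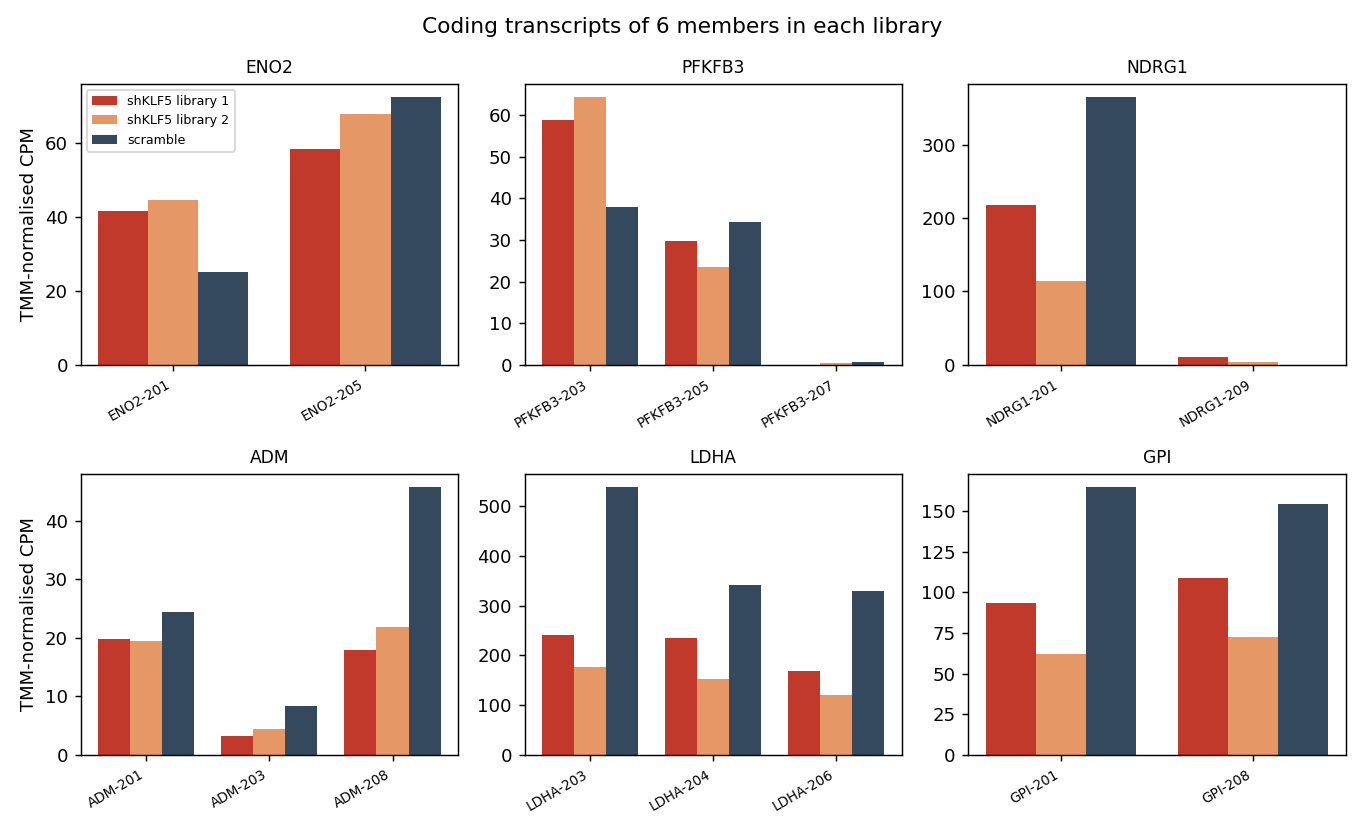
TMM-normalised CPM of the leading coding transcripts of 6 members; the 3 bars of each transcript are shKLF5 library 1, shKLF5 library 2 and scramble. On this scale ENO2-201 and PFKFB3-203 are higher in both shKLF5 libraries than in scramble while ENO2-205 and PFKFB3-205 are lower. All transcripts shown of LDHA and GPI are lower.

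The wider pathway was read from 3 further lists, beside 36.5% lower and 37.9% higher in both libraries over all genes tested. Of 32 other glycolysis genes, 24 were tested; 12 were lower and 6 higher in both libraries, and the median log2 fold change was -0.22. Only PDHB, the beta subunit of pyruvate dehydrogenase, had an unadjusted p under 0.05, with 18.4 and 13.2 CPM in shKLF5 libraries 1 and 2, against 31.7 CPM in scramble. Among 9 HIF pathway factors the median was 0.13, with 3 lower and 5 higher in both libraries and none with an unadjusted p under 0.05. HIF1A, the main oxygen-regulated subunit, had 222 and 128 CPM in shKLF5 libraries 1 and 2, against 242 CPM in scramble, a log2 fold change of -0.47 (SE 0.41). Its partner ARNT had 45.3 and 27.2 CPM, against 47.1 CPM in scramble, so for both genes the difference lay mostly in library 2. EPAS1, the other main HIF alpha subunit, was scarce, with 6.98 and 2.01 CPM in the shKLF5 libraries against 1.20 CPM (log2 fold change 1.898, SE 0.84, unadjusted p 0.0549 by edgeR).

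All 32 of the other hypoxia targets were tested, with a median log2 fold change of -0.31. In both libraries 16 were lower and 9 higher, beside 36.5% and 37.9% of all genes tested. At an unadjusted p under 0.05, 1 was lower and 2 were higher, beside 3.5% lower and 5.68% higher of all genes tested. HMOX1, heme oxygenase, had 51.1 and 38.7 CPM in shKLF5 libraries 1 and 2, against 88.8 CPM in scramble. MAFF, a small bZIP factor, had 55.7 and 151 CPM in the shKLF5 libraries, against 19.2 CPM in scramble (log2 fold change 2.43, SE 0.63). CITED2, a HIF-induced protein that competes with HIF for its coactivator, had 13.3 and 12.1 CPM in shKLF5 libraries 1 and 2, against 5.79 CPM in scramble. MAFF and CITED2 were above scramble in both libraries. None of these 3 genes or PDHB passed the adjusted threshold, with adjusted p from 0.466 to 0.525 by edgeR's quasi-likelihood test.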

How the data were processed

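RNA-seq of 3 TE5 libraries was used, 2 with shKLF5 and 1 with scramble. TruSeq libraries of total RNA were sequenced on a HiSeq, per the labels. The authors deposited 1 abundance table per library, and the submitters' processing notes name kallisto, DESeq2 and hg19 with no version. Per the file headers, the deposited estimated counts are given per transcript, as fractions where reads are shared, without normalisation. Deposited TPM are divided by effective length and scaled to a fixed sum per library, per the file headers. The deposited lengths served to check the annotation and scale counts. The transcript set, the index and whether strand was used is not given in the sources used here, so paralogs, overlapping genes and antisense pairs carry that doubt.

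Transcripts were matched by Ensembl identifier to GENCODE v29 (GRCh38; 181857 of 196354, 92.6%), and its coordinates are printed; unmatched transcripts held 3.05% to 3.42% of counts and were left out. Estimated counts were summed per gene and rounded. Genes passing filterByExpr (20629) entered edgeR 4.0.16 under R 4.3.3 (TMM, quasi-likelihood F test, two-sided, Benjamini-Hochberg adjustment, threshold 0.05). Residual degrees of freedom were 1 and prior degrees 6.86, with a biological coefficient of variation of 32.9%. TMM factors were 1.11 and 1.10 for shKLF5 libraries 1 and 2 and 0.82 for scramble. SE is the absolute log2 fold change over the square root of F. A single library's fold changes carry no test and used 2 as prior count. Values with few counts carry counting error besides, which intervals from these libraries include only in part, and no molecular identifiers are stated. Alternatives were other scalings, filters and genes, length-scaled TPM, DESeq2 1.42.0, the legacy fit of edgeR, limma 3.58.1 on log2(TPM + 1) and log2(TPM + 0.1), a loess on abundance, pseudogenes added, and either shKLF5 library left out.

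The members and all lists were chosen with earlier results of these data known. Values of all 3 libraries with SE and interval were given for KLF5, for members with an unadjusted p under 0.05 or an absolute log2 fold change of at least 1, and for GAPDH, PGK1 and VEGFA. For CA9, which was not tested, counts alone were given. From the other lists HIF1A, EPAS1, ARNT and genes with an unadjusted p under 0.05 were named, and isozymes and single transcripts where the members' families or transcripts called for them.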

Additional observations from a re-analysis of the deposited data

How the results depend on the processing

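Fold changes here are relative to the median of all genes tested under each setting. No member passed the adjusted threshold under any setting with a test. The count of genes called, 0 in edgeR's quasi-likelihood test, was 2 with mitochondrial genes left out, 21 with edgeR's legacy fit and 116 with DESeq2. KLF5 was past the threshold under the last 2, at -2.999 each. The median of the core enzymes, -0.68, was -1.01 with no filter and -0.24 after the loess on abundance, and -0.97 to -0.53 with either shKLF5 library left out. That of the non-enzymatic targets, -0.44, was -0.77 with no filter, -0.15 with a mean CPM of at least 5, -0.25 after the loess, -0.29 on log2(TPM + 1), and -0.62 to -0.15 with either library left out. The difference of the medians, -0.24, was -0.33 with a mean CPM of at least 5. That filter drops ANGPTL4, at a mean of 3.22 CPM, from the targets, so their median there covers fewer genes. The difference was -0.27 on log2(TPM + 1), -0.27 on log2(TPM + 0.1), 0.012 after the loess, and -0.38 to -0.36 with either library left out. The sign turned for ENO2 (-0.24), PFKFB3 (-0.072), VEGFA (-0.22), ANKRD37 (-0.11), BHLHE40 (-0.21) and KDM3A (-0.29) with no filter, which adds genes of few counts and moves the median of all genes to 0.33. It also turned for PDK1 (0.083) and CA12 (-0.072) on log2(TPM + 1), for SLC16A3 (0.10) with a mean CPM of at least 5, and for KDM3A with length-scaled TPM (-0.10) and on log2(TPM + 0.1) (-0.042). With shKLF5 library 2 left out it turned for SLC16A3 (0.42), PFKFB4 (0.04) and VEGFA (-0.048). The cause was not tested. No other member value turned under a setting run. No paired analysis was possible because scramble has 1 library. Leaving out a shKLF5 library left no degree of freedom, so those values carry no test. With 1 scramble library its own spread was not measured, and CA9 and CA12 are limited by depth.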

Other observations

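Among the 32 other hypoxia targets, 25 were lower in shKLF5 library 2 than in shKLF5 library 1, beside 49.7% of all genes tested, and the genes named here were chosen after their values were seen. AK4, a mitochondrial adenylate kinase, had 65.0 and 22.3 CPM in shKLF5 libraries 1 and 2, against 69.9 CPM in scramble. FAM162A, a mitochondrial protein, had 59.8 and 26.2 CPM, against 65.4 CPM in scramble. PLOD1, a collagen lysyl hydroxylase, had 277 and 115 CPM in the shKLF5 libraries, against 317 CPM in scramble. GYS1, muscle-type glycogen synthase, had 113 and 54.6 CPM, against 129.5 CPM in scramble. In these 4 genes library 1 stood near scramble and library 2 well below it. EGLN3 also had its larger drop in library 2, at a log2 fold change of -3.95, but was at -0.42 in library 1. The hexokinase-like gene HKDC1 went the other way, with 9.99 and 48.5 CPM in shKLF5 libraries 1 and 2, against 15.9 CPM in scramble. What the labels' numbers 1 and 2 stand for cannot be told from the sources used here, and the part of this difference in the results was not tested.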
